A study of Homo sapiens with 6 samples.

Results

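The 3 bulk RNA-seq libraries described here came from MDA-MB-231 cells carrying a control short hairpin RNA (shControl) and were chosen by that label alone. They are 3 of the 6 libraries of the series. MDA-MB-231 is an established human breast cancer line, known as triple-negative because it lacks estrogen receptor, progesterone receptor and amplified ERBB2. The other 3 libraries carry a hairpin against RNF20 (shRNF20), a ubiquitin ligase for histone H2B, and serve here only as the replicated group that gives the spread between libraries. All 6 share the cell line, and the labels name no other treatment, dose or time. The labels do not give the control hairpin's sequence, and they do not say whether the cells were pools or clones or whether the replicates were separate cultures.

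MDA-MB-231 is widely used as a mesenchymal-like model. Epithelial cells hold together through cadherins, claudins and desmosomes and carry keratin filaments, while mesenchymal cells rely on vimentin, integrins and matrix remodelling. In breast tissue, luminal cells are marked by FOXA1, GATA3 and the estrogen receptor, and basal cells by KRT5, KRT14 and TP63.

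Gene counts totalled 29685306, 25269535 and 23786533 in shControl libraries 1, 2 and 3. RNF20 itself stood at 57.5, 58.6 and 57.3 CPM (counts per 1000000 gene counts) in the 3 libraries, against 11.1 to 14.1 CPM in the shRNF20 libraries. Mitochondrially encoded genes took 0.966%, 1.38% and 0.934% of the counts. Markers of other cell types were low: the 18 leukocyte markers summed to 14.9, 12.5 and 16.3 CPM with MS4A1 at 0 counts, the 8 endothelial markers to 14.7 to 24.1 CPM, the 6 adipocyte markers to 0.925 to 5.03 CPM, and the 14 hepatocyte, muscle and neuron markers to 7.85 to 11.5 CPM. The 10 fibroblast markers summed to 17.3 to 23.3 CPM, of which the collagen gene COL1A1 gave 12.6, 13.2 and 13.7 CPM, and THY1 had 0 counts. In bulk RNA, fewer cells of a type and less RNA per cell cannot be told apart.

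The markers of the line were present in every library. VIM, the mesenchymal intermediate filament vimentin (10:17228259-17237593, hg38), stood at 608, 614 and 680 CPM. CD44, the hyaluronan receptor (11:35138870-35232402), stood at 955, 715 and 781 CPM. The simple-epithelial keratins KRT18 (12:52948871-52952901) and KRT19 (17:41523617-41528308) were expressed beside them, KRT18 at 231, 188 and 198 CPM and KRT19 at 332, 541 and 431 CPM. Vimentin and simple keratins were read in the same libraries.

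Transcript levels spanned a broad range. Of 19831 protein-coding genes, 11950 ± 117 (SD, n = 3) reached 1 CPM per library, and 72 had a mean of 1000 CPM or more. The 100 most abundant genes held 15.4% ± 0.404 of the counts (SD, n = 3), and 1126 ± 21 genes held 50%. The 6989 coding genes between 10 and 100 CPM formed the largest class of genes, whereas the 2420 genes between 100 and 1000 CPM held the largest share of counts, 55.3%.

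**Figure D1:**
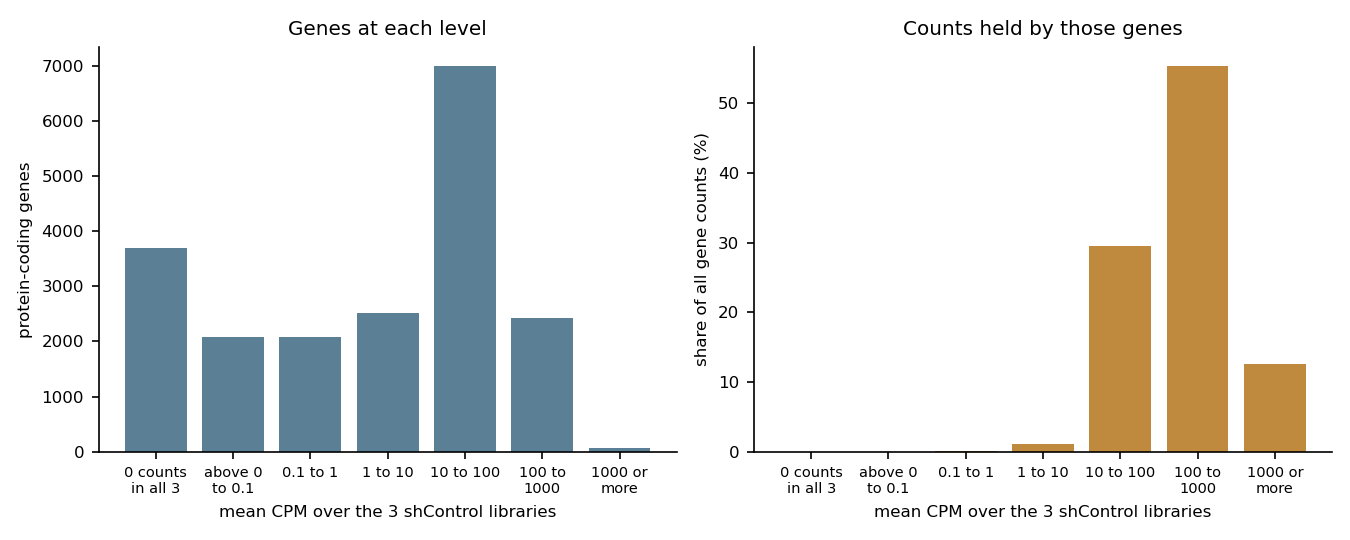
Bars on the left count protein-coding genes by mean CPM over the 3 shControl libraries, and bars on the right give the share of all gene counts (%) held by the same genes. The largest class of genes lies at 10 to 100 CPM (6989 genes), while the 72 genes at 1000 CPM or more hold 12.6% of the counts.

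The most abundant transcripts by counted reads came from translation, the actin cytoskeleton and mitochondria. Reads shared by overlapping genes were not counted, so a gene that overlaps others can rank too low. FTH1, with 37.6% of its exon length free of other genes, stood at a mean of 390 CPM, and ALDOA, with 46.5%, at 1.51 CPM. The part of overlap in these levels was not tested. EEF1A1, the translation elongation factor that brings tRNA to the ribosome, led with 9832, 10703 and 10456 CPM. The cytoplasmic actins ACTB (6579, 5298 and 6146 CPM) and ACTG1 (4802, 4370 and 5944 CPM) came next, and the actin crosslinker FLNA (3007, 2562 and 2545 CPM) and the myosin heavy chain MYH9 (2365, 2094 and 2161 CPM) were also among the 15 highest. The mitochondrial oxidase subunit MT-CO1 stood at 2301, 3307 and 2544 CPM and the mitochondrial ribosomal RNA MT-RNR2 at 1917, 3158 and 1621 CPM. ENO1 of glycolysis (mean 2591 ± 165 CPM; SD, n = 3), the elongation factor EEF2 (2462 ± 165), the ferritin chain FTL (2322 ± 282), the ribosomal stalk protein RPLP0 (2319 ± 245), the chaperone HSP90AA1 (2276 ± 219) and the actin-binding TMSB4X (2242 ± 323) filled most of the other places. The 86 genes of cytosolic ribosomal proteins together took 4.49% ± 0.152 of the counts (SD, n = 3).

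Among the 15 highest were 2 genes that are less general. IGFBP4, a secreted binding protein of insulin-like growth factors, stood at 1886, 3741 and 2267 CPM, with library 2 highest. KRT81, a hair-type keratin that shares sequence with KRT86, stood at 1352, 3092 and 2715 CPM, with library 1 lowest. Both differed among the libraries (edgeR quasi-likelihood adjusted p = 5.30e-11 for IGFBP4 and 1.19e-12 for KRT81, ranges 0.99 and 1.19 on the log2 scale), in the test that is described with the differences among libraries.

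Per unit of exon length, given as transcripts per 1000000 (TPM), the order changed, and 9 of the 15 highest genes were shared with the order by CPM. Reads shared by overlapping genes are missing from this order too. FTL became the highest at 11085 ± 1275 TPM (SD, n = 3). It was followed by MT-CO1 (7381 ± 1339), EEF1A1 (7283 ± 262), ACTB (7166 ± 849), ACTG1 (7067 ± 1193), MT-CO2 (6839 ± 2138) and MT-RNR2 (5990 ± 2117), whose SDs overlap, so their order is not resolved. Then came TMSB4X (5509 ± 729) and TMSB10 (5327 ± 483), both actin monomer binders, S100A6 (5185 ± 522), a calcium-binding protein, KRT81 (5179 ± 1953) and IGFBP4 (5003 ± 1803). HMGA1 (3656 ± 319), a chromatin protein, and MT-CO3 (3598 ± 319) closed the list. RPL41P1 also reached the list (4012 ± 457 TPM), but it is a pseudogene of a ribosomal protein and its counts cannot be told apart from those of its parent gene.

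Mesenchymal genes were broadly expressed, with exceptions among the classical drivers. Of 35 listed genes, 26 were at 10 CPM or more. Among the highest per length were ITGB1, the shared integrin chain (1248 ± 63.8 TPM; SD, n = 3), the receptor kinase AXL (1100 ± 55.6) and the membrane protease MMP14 (883 ± 89.5). The repressors of E-cadherin differed among themselves: ZEB1 was at 82.3, 96.0 and 87.3 CPM (42.9 ± 2.91 TPM), ZEB2 at 19.1, 24.5 and 20.7 CPM (3.59 ± 0.426 TPM), SNAI2 at 16.9, 5.34 and 8.83 CPM (12.9 ± 7.45 TPM) and SNAI1 at 1.11, 2.22 and 1.51 CPM (4.01 ± 1.34 TPM). TWIST1, TWIST2 and THY1 had 0 counts in all 3 libraries. N-cadherin (CDH2), a usual mesenchymal marker, was low at 4.08, 1.42 and 0.883 CPM, and the matrix protein SPARC reached at most 0.674 CPM. The mesenchymal cadherin CDH11 was at 60.8, 49.9 and 87.4 CPM.

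Epithelial genes were present in part. A list of 8 keratins joined simple-epithelial members with the hair-type KRT81 and its relative KRT86. Of the 8, 6 reached 10 CPM (KRT81, KRT8, KRT7, KRT19, KRT80 and KRT18). Per length KRT81 was followed by KRT19 (779 ± 179 TPM), KRT7 (586 ± 101), KRT8 (372 ± 26.3), KRT18 (269 ± 31.0) and KRT80 (268 ± 55.5, SD, n = 3). Of 20 junction and polarity genes, 15 reached 10 CPM, led per length by the desmosomal DSG2 (183 ± 20.6 TPM) and JUP (183 ± 44.5) and the tight junction gene CLDN4 (132 ± 14.8). E-cadherin (CDH1) was low but detected, at 13.2, 26.3 and 15 CPM (393, 664 and 357 counts), and EPCAM stood at 15.9, 13.1 and 11.4 CPM.

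The factors that maintain the epithelial program ranged from well expressed to nearly silent. EHF (216, 145 and 217 CPM), XBP1 (94.4, 106 and 108 CPM), SPDEF (51.2, 78.9 and 81.5 CPM), KLF5 (55.2, 52.9 and 49.5 CPM), KLF4 (38.6, 54.7 and 42.1 CPM), ESRP2 (23.5, 25.6 and 23 CPM), ELF3 (14, 33.5 and 17 CPM) and TFAP2A (14.2, 10.8 and 10.8 CPM) were the 8 of 19 at 10 CPM or more. GATA3, TFAP2C and GRHL1 lay between 1 and 10 CPM, and 8 were below 1 CPM. ELF5, a luminal progenitor factor, had 0 counts. ESRP1, a splicing regulator related to ESRP2, had 4, 0 and 1 counts, GRHL2 had 0, 3 and 0, OVOL1 had 1, 4 and 0, and OVOL2 had 2, 0 and 0, at or under a few counts per library. The epithelial ETS-family factors EHF, SPDEF and ELF3 were thus clearly read in libraries where GRHL2 was at or under 3 counts.

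Hormone receptors of the luminal lineage were near 0. ESR1, the estrogen receptor, had 3, 5 and 0 counts, and PGR, the progesterone receptor, had 0, 1 and 5. The pioneer factor FOXA1 had 10, 1 and 7 counts (0.337, 0.0396 and 0.294 CPM), whereas GATA3 was at 15.6, 6.13 and 8.07 CPM. Of 22 luminal genes, 6 reached 10 CPM: XBP1, ERBB2 (107, 91.5 and 105 CPM), SPDEF, ERBB3 (33.8, 64.2 and 42.0 CPM), the secretory disulfide isomerase AGR2 (15.6, 35.6 and 37.9 CPM) and BCL2 (16.7, 14.9 and 24.4 CPM). AGR3 and ELF5 had 0 counts. ERBB2 mRNA, at 41.2 ± 3.85 TPM (SD, n = 3), was below that of its relative EGFR (144 ± 4.93 TPM) in every library.

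Basal cytokeratins were silent or nearly so, while the laminin gene LAMB3 was abundant. KRT5, KRT6A and KRT6B had 0 counts in all 3 libraries and KRT14 had 3, 1 and 0 counts, while KRT17 was read at 6.16, 14 and 4.25 CPM. TP63, the master factor of basal cells, was at 1.41, 0.673 and 0.589 CPM, and SOX10 had 4 or 5 counts per library. By contrast, 9 of the 24 basal genes reached 10 CPM, and among the highest per length were LAMB3 (332 ± 111 TPM), a laminin chain, the cell cycle regulator SFN (228 ± 75.3) and the laminin receptor chain ITGA6 (168 ± 29; SD, n = 3). FOXC1, a basal-like breast cancer factor, stood at 36.0, 29.3 and 21.9 CPM.

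**Figure D2:**
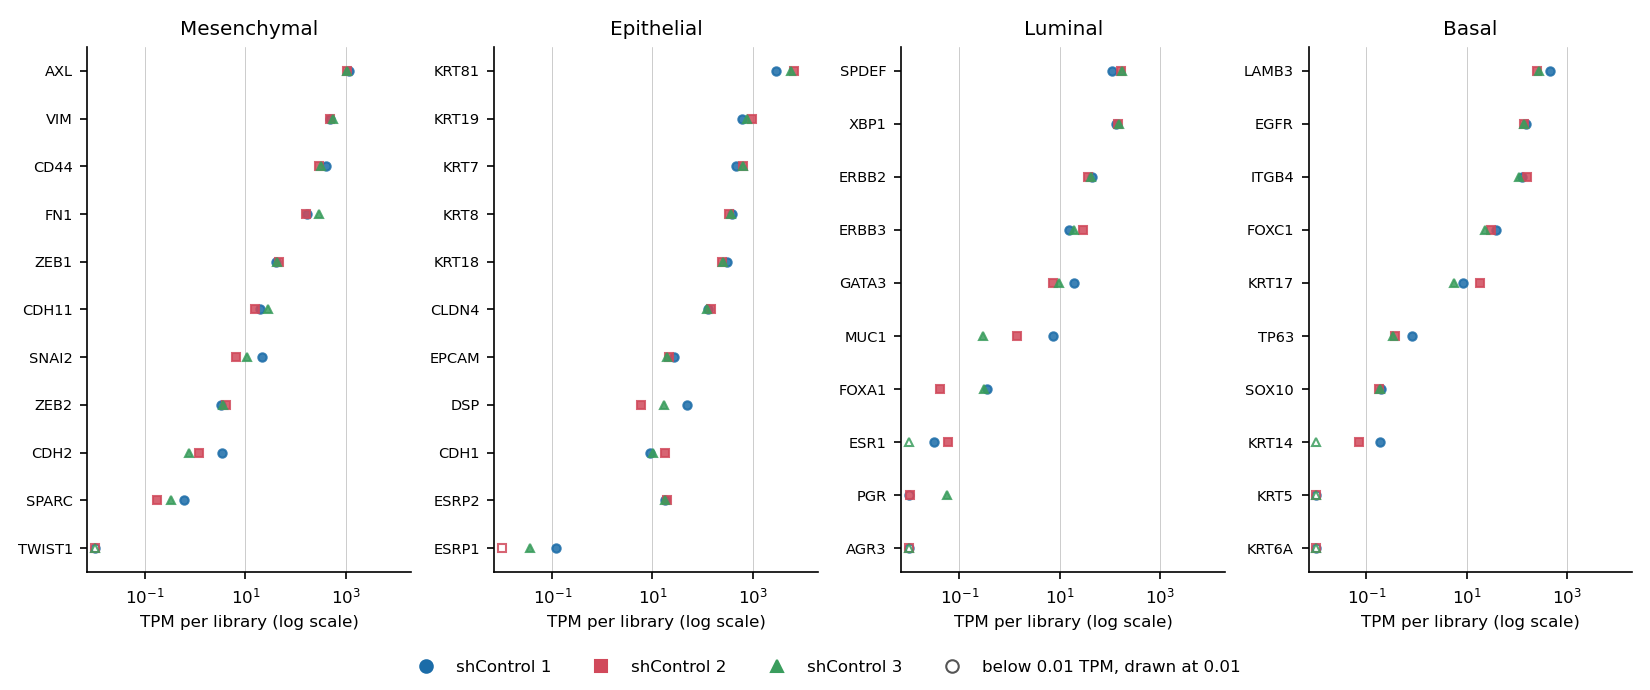
Each point is the TPM of 1 gene in 1 shControl library (log axis), in 4 groups of lineage genes; open symbols mark values below 0.01 TPM. VIM (516 ± 35.4 TPM), CD44 (343 ± 54.7 TPM) and KRT18 (269 ± 31 TPM) are high in every library, while ESR1, PGR, KRT14, KRT5, KRT6A and TWIST1 lie below 1 TPM in every library.

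Factors of other tissues were mostly silent, with a few exceptions. Of 37 such factors, 6 reached 10 CPM, 27 were below 1 CPM and 12 had 0 counts, among them NANOG, LIN28A, NEUROD1, OLIG2, MYOD1 and MYF5. Per length the highest was FOXA2, a pioneer factor of endoderm, at 208 ± 67.3 TPM (83.2, 168 and 138 CPM). It was followed by MITF, known from melanocytes (60.0 ± 9.01 TPM; 84.6, 116 and 108 CPM), the bone factor RUNX2 (45.6 ± 2.04 TPM; 87.2, 94.7 and 85.3 CPM) and the cartilage and progenitor factor SOX9 (45.5 ± 14.3 TPM; 57.5, 33.1 and 37.3 CPM). RUNX1, a blood factor also used in mammary cells, was at 169, 148 and 137 CPM. The FOXA pair thus differed: FOXA2 exceeded FOXA1 (0.237 ± 0.171 TPM) in each of the 3 libraries.

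General growth and stress factors were all present. All 34 listed oncogenic and AP-1 factors were at 1 CPM or more, and 32 were at 10 CPM or more. Per length, HMGA1 (3656 ± 319 TPM) was followed by FOSL1 (926 ± 24.5), the AP-1 subunit of invasive breast lines, CEBPB (595 ± 146) and JUND (584 ± 63.1; SD, n = 3).

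Receptor tyrosine kinases, which pass growth signals across the membrane, were led by AXL. Of 58 kinases, 22 were at 10 CPM or more. AXL stood at 1418, 1345 and 1290 CPM and did not differ detectably among the libraries (edgeR adjusted p = 0.122, range 0.14 log2). EPHA2, an ephrin receptor (532, 528 and 650 CPM; 575 ± 73.7 TPM), MET, the receptor of hepatocyte growth factor (352, 375 and 413 CPM; 227 ± 18.8 TPM), and EGFR (444, 425 and 420 CPM; 144 ± 4.93 TPM) followed per length, and each step from AXL to EGFR exceeded the spread of its neighbours. PTK7, a Wnt co-receptor (104 ± 18 TPM), EPHB2 (72.4 ± 12.3) and FGFR1 (58.4 ± 1.5) came next, and the others at 10 CPM or more were ERBB2, IGF1R, EPHB4, ROR1, LMTK2, INSR, RYK, DDR1, ERBB3, TYRO3, MERTK, MST1R, MUSK, LMTK3 and STYK1. FLT3, FLT4, FGFR2, NTRK2, NTRK3 and ALK had 0 counts.

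Cytokine receptors were led by the receptors of the interleukin-6 family. OSMR, the oncostatin M receptor, stood at 357, 387 and 407 CPM (224 ± 14.8 TPM) and its partner IL6ST, the shared signalling chain gp130, at 382, 299 and 323 CPM (151 ± 20.6 TPM). IL7R, a receptor best known from lymphocytes, followed per length at 80.9 ± 21.2 TPM (119, 148 and 84.3 CPM), and IL13RA1 came after it (67.8 ± 6.06 TPM). Of 46 receptors, 19 were at 10 CPM or more and 7 had 0 counts: IL2RA, IL3RA, CSF2RA, CSF3R, IL5RA, IL9R and IL13RA2. IL3RA, CSF2RA and IL9R lie in regions shared by the X and Y chromosomes, and reads that map to more than 1 place were not counted, so their 0 counts cannot be read as silence.

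Of 29 TNF receptors, 13 were at 10 CPM or more. TNFRSF21, death receptor 6, was highest per length (543 ± 41.5 TPM), then TNFRSF12A, the TWEAK receptor (422 ± 23.5), the TRAIL receptor TNFRSF10B (245 ± 47.0) and TNFRSF1A (194 ± 25.8; SD, n = 3). TNFRSF13B, EDA2R and TNFRSF6B had 0 counts, but TNFRSF6B has 0% of its exon length free of other genes in the GENCODE 29 annotation, and reads over more than 1 gene were not counted. TGF-beta receptors were led by TGFBR2 (306 ± 48.9 TPM) and TGFBR1 (78.2 ± 11.3), with 9 of 14 genes of that family at 10 CPM or more. Among Wnt, Notch and Hedgehog receptors 13 of 22 reached 10 CPM, led by the Wnt co-receptor LRP5 (399 ± 94.4 TPM), LGR4 (165 ± 33.1), FZD2 (147 ± 1.43) and NOTCH2 (128 ± 8.98). FZD10 and SMO, the Hedgehog signal transducer, had 0 counts.

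Chemokine receptors were nearly absent. CCRL2 (21.3, 14.6 and 17.1 CPM) and CXCR4, the receptor of CXCL12 (15.3, 10.9 and 9.21 CPM), were the only ones of 23 at 10 CPM or more. The receptors for the abundant CXC ligands, CXCR1 and CXCR2, had 0 counts, as had CXCR3, CXCR5, CCR6, CCR8 and CX3CR1. Of these, CXCR5 and CCR6 have 11.4% and 30.8% of their exon length free of other genes, so their 0 counts rest on little sequence.

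Some other G protein-coupled receptors and integrins were abundant. The protease-activated receptor F2RL1 stood at 917 ± 176 TPM, the orphan receptor GPRC5A at 450 ± 50.5, the adenosine receptor ADORA2B at 420 ± 82.0 and the adhesion receptor ADGRE5 at 193 ± 21.2 (SD, n = 3), and 13 of 39 listed receptors were at 10 CPM or more, 12 were below 1 CPM, and ADORA3 had 0 counts. Among 26 integrins, 13 reached 10 CPM, led by ITGB1 (1248 ± 63.8 TPM), ITGA3 (496 ± 42.7), ITGA6 (168 ± 29) and ITGA5 (166 ± 16.1), and ITGA8 had 0 counts.

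Nuclear receptors, which are transcription factors switched by hormones and lipids, gave a flat order. Of 48, 22 were at 10 CPM or more. NR2F6 (146 ± 16.2 TPM), NR2F2 (135 ± 44.0), ESRRA (127 ± 3.72) and NR1H2 (127 ± 8.73) led per length, and these 4 did not differ beyond their spread (SD, n = 3). The glucocorticoid receptor NR3C1 had the highest CPM of the family (213, 249 and 199 CPM), at 101 ± 10.7 TPM. PPARG, known from fat cells, stood at 57.1, 83.0 and 80.2 CPM. NR1H4 and NR0B1 had 0 counts.

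**Figure D3:**
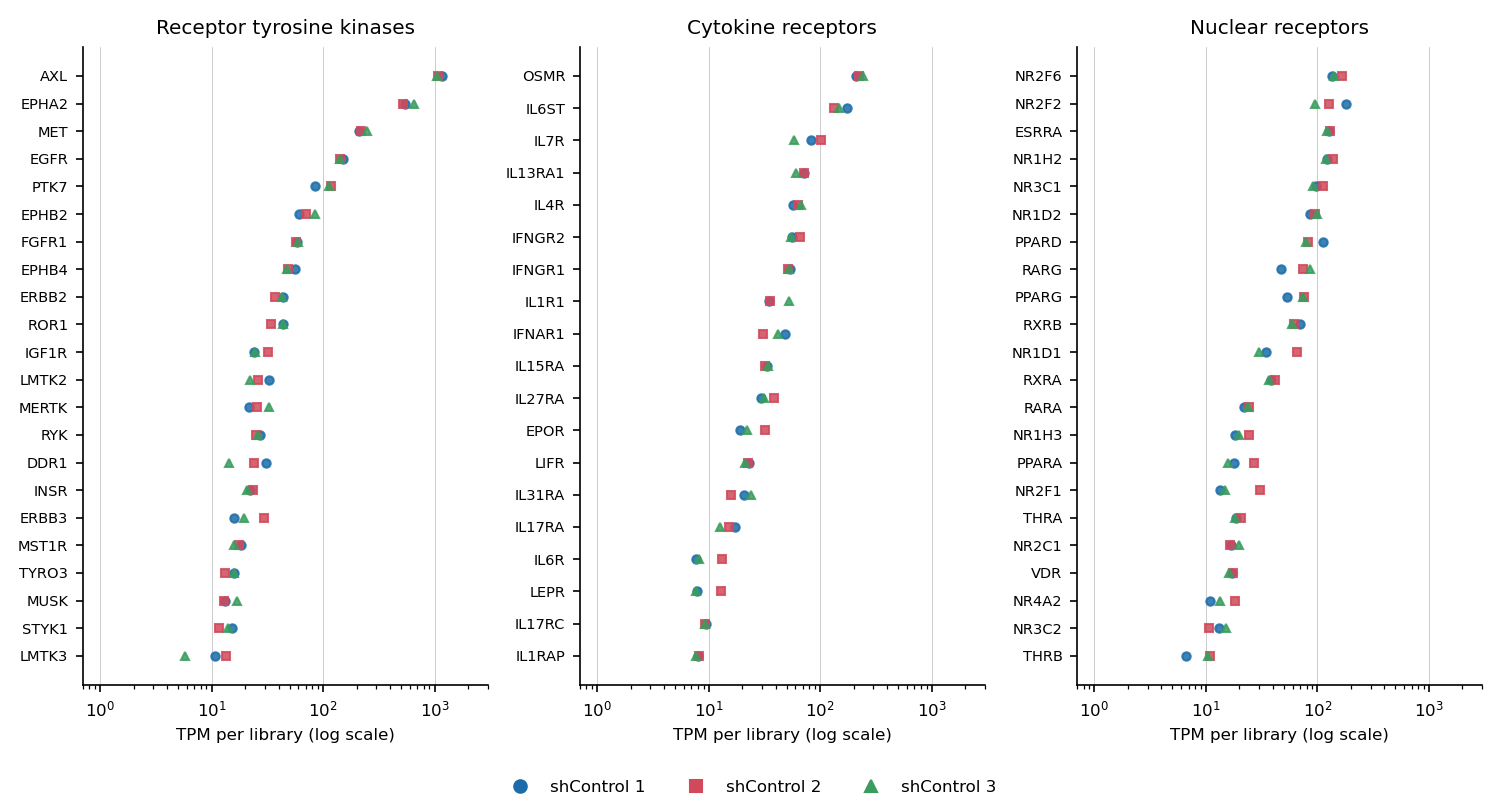
TPM (log axis) in each shControl library for every receptor tyrosine kinase (22), cytokine receptor (19) and nuclear receptor (22) of the lists with a mean of 10 CPM or more. AXL stands at 1100 ± 55.6 TPM above all other kinases, and the upper nuclear receptors lie close together.

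Secreted inflammatory factors were among the abundant messages. Per length CXCL1 (2124 ± 976 TPM), CXCL8 (1613 ± 277), IL11 (1280 ± 585) and CXCL2 (664 ± 310; SD, n = 3) led a list of 30 cytokines and chemokines, 19 of which were at 10 CPM or more. Of 30 cancer-testis antigens, 13 had 0 counts, among them PRAME, MAGEA1, MAGEA4, MAGEA10, GAGE1 and PAGE1, and the broadly expressed MAGED2 (202, 315 and 229 CPM) and MAGED1 (197, 350 and 170 CPM) were the only ones at 10 CPM or more. Next per length were SPANXB1 (7.44, 3.40 and 7.36 CPM) and CT83 (5.02, 3.13 and 4.75 CPM).

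In all, 3688 protein-coding genes (18.6%) had 0 counts in the 3 libraries. With 78741374 counts in all, 0 counts allow a level of up to 0.0381 CPM (3 counts; counting error only). The silent families were those of other tissues: 351 of 389 olfactory receptors, 78 of 94 keratin-associated proteins of hair, 36 of 39 beta-defensins, 16 of 19 late cornified envelope genes and 27 of 50 keratins had 0 counts. By comparison, 41 of 518 zinc finger genes named ZNF, 56 of 377 solute carriers and 5 of 44 collagens had 0 counts. Of the 3688 genes, 423 (11.5%) have less than 10% of their exon length free of other annotated genes, against 2.47% of all coding genes, and near-identical copies lose their reads to multimapping, so not every 0 is a silent gene.

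Silent genes lay in runs along the chromosomes. The longest run held 65 neighbouring coding genes on chromosome 11, from OR4B1 to LRRC55 (11:48216810-57191717), mostly olfactory receptors. The next held 33 defensin and FAM90A genes on chromosome 8 (DEFA6 to DEFB104A), 26 genes on chromosome 21 from CLDN17 to KRTAP20-4, mostly keratin-associated proteins, and 24 genes on chromosome 4 from CPZ to DEFB131A, mostly USP17L copies.

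The remaining long run held 25 coding genes on chromosome 9 (9:20999515-24545946, 3546 kb), from HACD4 to IZUMO3, mostly type I interferons. Beside them it holds genes of other kinds, among them MTAP, an enzyme of the methionine salvage pathway used in nearly all cells, KLHL9, a ubiquitin ligase adaptor, and CDKN2A and CDKN2B, which encode inhibitors of the kinases that drive entry into S phase. All 13 interferon alpha genes, IFNB1, IFNW1, IFNE, DMRTA1 and ELAVL2 also had 0 counts, as did the noncoding CDKN2B-AS1. MTAP has 90.4% of its exon length free of other genes and CDKN2A has 92.1%, and both had 0 counts in the shRNF20 libraries as well. The neighbours outside the run were expressed: MLLT3 at 35.5, 53.7 and 47.3 CPM and FOCAD at 4.21, 4.27 and 3.78 CPM on 1 side, and TUSC1 at 11.9, 9.66 and 13.1 CPM on the other. A homozygous deletion of CDKN2A is known in this line as background. DNA was not measured here.

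Promoter sequence varied with the level of expression. In RefSeq promoters (GRCh38.p14, 250 bases before to 50 after the start; 15271 coding genes matched), the median number of CpG dinucleotides was 5 for the genes with 0 counts, 11 for those above 0 and under 1 CPM, 23 at 1 to 10 CPM, 27.0 at 10 to 100 CPM and 29 at 100 CPM or more, against 22.0 over all. The letters TATAAA, on either strand, occurred in 21.3% of the promoters of genes with 0 counts, in 5.96% at 100 CPM or more and in 9.61% of all. These are shares over genes, which are not independent replicates.

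Many genes differed among the 3 control libraries by more than the spread among the shRNF20 libraries. A test across all genes asked whether the 3 libraries shared 1 level, with the spread taken from the 3 shRNF20 libraries, since single libraries give none of their own (edgeR quasi-likelihood F-test, Benjamini-Hochberg adjusted p under 0.05). It called 6348 of 15797 genes tested, or 40.2%, and 1175 of these (7.44% of genes tested) also spanned at least 2-fold. The 40.2% includes genes with low counts, and no share was computed for genes matched in expression to the lists set against it below. Library 1 against 2 gave 5038 genes (31.9%), library 1 against 3 gave 3126 (19.8%) and library 2 against 3 gave 3805 (24.1%). These p-values and every count of called genes given here compare single libraries, rest on 2 residual degrees of freedom, and assume that a control library would vary as little as the shRNF20 libraries did. That assumption cannot be tested with these libraries: the common biological coefficient of variation was 3.99% in shRNF20 and 20% when the 3 shControl libraries were taken as replicates, so a call shows a difference beyond the shRNF20 spread and not beyond the controls' own. The count fell to 3241 without shControl library 2 and to 3974 without library 1, in fits that compare the 2 libraries left, and library 1 against 3 gave 2070 without shRNF20 library 1. DESeq2 called 3457.

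The size of the differences can be read without the test. Among 9651 genes with a mean of at least 10 CPM in shControl, the median range from the lowest to the highest control library was 0.29 on the log2-CPM scale, against 0.11 among the 3 shRNF20 libraries. A range of 2-fold or more was found in 265 genes (2.75%) among controls and in 5 (0.0518%) among shRNF20 libraries. Across these 9651 genes, log2-CPM values correlated with Pearson r = 0.967 for libraries 1 and 2 and 0.977 for the other pairs, and with 0.997 to 0.998 within shRNF20; these are descriptions across genes, which are not independent. Library 1 had 30 genes at least 2-fold above both others and library 2 had 26, while library 3 had 5 above and 21 below both others.

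**Figure D4:**
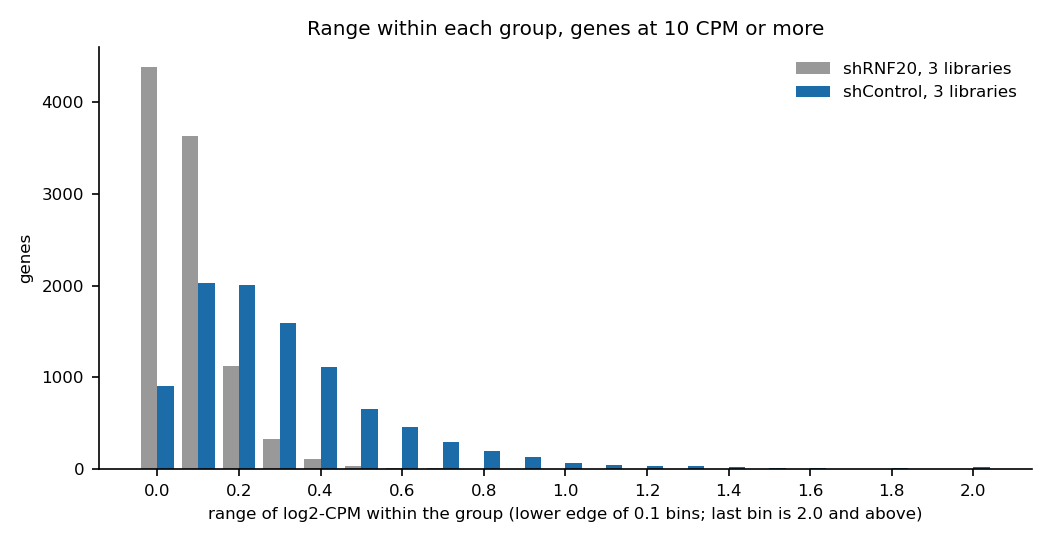
Number of genes (of 9651 with a mean of at least 10 CPM in shControl) by the range of log2-CPM among the 3 libraries of a group, in bins of 0.1, for shControl and for shRNF20. The shControl ranges centre on 0.29 and reach beyond 2.0 in 27 genes, while the shRNF20 ranges centre on 0.11.

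Library 1 stood apart by major histocompatibility complex (MHC) class II genes, which present peptides to T cells and are usually restricted to immune cells unless interferon gamma induces them through the coactivator CIITA. HLA-DRB1 stood at 44.2, 4.0 and 3.74 CPM in libraries 1, 2 and 3, HLA-DRA at 55.2, 6.29 and 10.5 CPM and HLA-DPA1 at 26.7, 3.68 and 5.17 CPM. CD74, the invariant chain, was at 377, 116 and 242 CPM, and CIITA at 31.7, 7.0 and 23.2 CPM. Library 1 was highest in each of these 5 genes, and for CIITA and CD74 library 3 lay between the others. A list of class II genes put together after these values were seen had 8 tested members, all called (against 40.2% of all genes) and all highest in library 1. Because the values chose the list, this share is no independent result. HLA-DQA1 and HLA-DQB1, also on the list, were low, at means of 0.0225 and 0.338 CPM. RFX5, a factor of class II promoters, was at 72.6, 75.4 and 67.1 CPM and spanned 0.17 on the log2 scale (edgeR adjusted p = 0.323). The 18 leukocyte markers, which summed to 14.9, 12.5 and 16.3 CPM, were highest in library 3; PTPRC was at 0.505, 0.950 and 0.504 CPM, and MS4A1 and FCGR3A had 0 counts. HLA-DRB1 has near-identical copies, so its counts are uncertain. IFNG had 0 counts in every library.

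The Y box, a motif of class II promoters to which the factor NF-Y is known to bind, was searched as CTGATTGG on both strands. It occurred in 5.25% of the RefSeq promoters. Of the 6 class II genes with a promoter in that set, HLA-DRB1 and HLA-DMA hold these letters, starting 49 and 82 bases before the start. The exact letters were not found in HLA-DPA1, HLA-DPB1, HLA-DMB and CD74, but a Y box spelled otherwise would be missed. CD74 holds CCAAT, the first letters of the reverse form CCAATCAG. The HLA-DPA1 window (6:33080699-33080998) lies downstream of the HLA-DPB1 window (6:33075740-33076039, plus strand). Whether it is the start used in these cells was not tested. HLA-DRB1 is shown because its fold difference between libraries was the widest of the class II genes at 10 CPM or more; capitals mark the Y box.
HLA-DRB1 (chr6:32589799-32590098, GRCh38.p14, minus strand): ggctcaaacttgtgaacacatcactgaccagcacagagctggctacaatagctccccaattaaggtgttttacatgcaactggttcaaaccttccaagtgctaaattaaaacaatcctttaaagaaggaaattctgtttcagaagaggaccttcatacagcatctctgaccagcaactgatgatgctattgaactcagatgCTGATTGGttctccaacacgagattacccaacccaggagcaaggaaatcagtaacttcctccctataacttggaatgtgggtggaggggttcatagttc

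Other genes peaked in library 1 as well. SERPINA1, alpha-1 antitrypsin, spanned the widest range of the genes named here, at 45.1, 6.53 and 0.883 CPM. CEMIP, a hyaluronan-degrading protein, stood at 170, 36.8 and 33.4 CPM, the adhesion receptor ADGRF1 at 66.4, 11.9 and 12.2 CPM, NOG, an inhibitor of bone morphogenetic proteins, at 44.1, 8.55 and 7.74 CPM, and KLF13 at 27.1, 5.34 and 3.36 CPM. For CEMIP, ADGRF1, NOG and KLF13 libraries 2 and 3 lay near each other. Lowest in library 1 were PELI2 (11.2, 30.9 and 29.5 CPM), ADM2 (5.15, 15.9 and 13.1 CPM), the chemokine CCL20 (22.4, 51.6 and 62.3 CPM) and the stress cytokine GDF15 (232, 530 and 545 CPM).

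Proliferation genes were mostly lowest in library 2 and highest in library 1. Of 31 tested genes of G1/S and DNA replication, 30 (96.8%) were called against 40.2% of all genes. Of these calls, 29 were lowest in library 2, 19 were highest in library 1 and 11 in library 3, and 4 reached 2-fold. Over all genes, 2507 of the 6348 calls were lowest in library 2 and 2438 were highest in library 1. A deviation here is the log2-CPM of 1 library minus the mean of the other 2 shControl libraries. Its median over the list was 0.43, -0.55 and 0.17 log2 in libraries 1, 2 and 3. POLA1, the catalytic subunit of DNA polymerase alpha, stood at 38.6, 16.6 and 26.2 CPM, and E2F2 at 14.9, 6.61 and 7.48 CPM. For E2F2 libraries 2 and 3 lay near each other and library 1 was highest. Of 26 genes of G2/M and mitosis, 23 (88.5%) were called, all 23 lowest in library 2 and none spanning 2-fold. Of these 23, 20 were highest in library 1 and 3 in library 3. The median deviations of the G2/M list were 0.30, -0.39 and 0.03 log2 in libraries 1, 2 and 3. MKI67, the Ki-67 antigen, stood at 592, 340 and 450 CPM and the checkpoint kinase BUB1 at 200, 124 and 179 CPM. Without library 2 the calls numbered 11 and 8. Library 2 also had the highest mitochondrial share (1.38%) and the highest share of reads on no gene (22.7%, against 20.9% and 21.1%); their part in the result was not tested.

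Immediate early and stress genes moved otherwise. Over all genes, 40.2% were called, and 2340 of the 6348 calls were highest in library 2. Of 26 immediate early and AP-1 genes, 19 (73.1%) were called, 14 of them highest in library 2, and 7 were called without that library. Such a share is not particular to this list: 75.9% of mesenchymal genes and 64.7% of YAP and TEAD targets were called. It was 41.5% for ribosomal protein genes. EGR1, a growth-factor-induced factor, was at 47.4, 108 and 43.9 CPM and the phosphatase DUSP1 at 213, 442 and 290 CPM. Of 29 hypoxia and glycolysis genes 22 (75.9%) were called, 14 highest in library 2, with CA9, carbonic anhydrase 9, at 1.75, 2.89 and 0.0841 CPM and the aldolase ALDOC at 2.73, 4.27 and 1.60 CPM. Of 33 nuclear receptors 20 (60.6%) were called, 13 highest in library 2. Of 15 heat shock genes 10 (66.7%) were called, 9 of them highest in library 1, with DNAJB1 at 143, 113 and 100 CPM and HSPA8 at 1607, 1160 and 1248 CPM.

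Single genes also set library 2 apart. The glutamate transporter SLC1A7 stood at 25.6, 84.4 and 16.9 CPM, AIF1L at 19.4, 55.2 and 7.82 CPM, the water channel AQP3 at 25.2, 68.1 and 19.0 CPM and KISS1, precursor of kisspeptin, at 25, 62.7 and 21.5 CPM. S100P (7.55, 28.9 and 10.7 CPM), ITGA7 (10.4, 35.7 and 13.3 CPM) and DEPP1 (7.61, 20.1 and 6.98 CPM) were likewise highest there. Lowest in library 2 were the desmosomal plakin DSP (116, 14.6 and 40.4 CPM), the matrix protease ADAMTS9 (53.3, 6.02 and 24.4 CPM), CIITA and the sphingosine receptor S1PR3 (15.2, 6.61 and 15.4 CPM).

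Several chemokines were highest in library 3. CXCL1 stood at 460, 509 and 998 CPM, CXCL2 at 184, 164 and 363 CPM and CXCL3 at 97.6, 85.4 and 220 CPM; these attract neutrophils and are known targets of the factor NF-kappaB. In all 3 genes libraries 1 and 2 lay near each other and library 3 was highest. Of 25 tested cytokines and chemokines, 22 (88.0%) were called against 40.2% of all genes, 14 spanned 2-fold, and 12 were called and highest in library 3, among them IL11 (633, 572 and 1236 CPM). As many as 11 called members were lowest in library 1. The list's median deviations, each from the mean of the other 2 libraries, were -0.41, -0.06 and 0.20 log2. As a whole, library 1 thus lay farther from the other libraries than library 3 did. The calls numbered 15 without library 3. The list did not move as 1 block: TNFSF10, the ligand TRAIL, stood at 58.0, 19.7 and 9.08 CPM and CCL5 at 3.13, 2.53 and 0.841 CPM, both lowest in library 3.

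CXCL1, CXCL2 and CXCL3 are related neighbouring genes on chromosome 4, so reads they share may have gone uncounted, and their promoters are shown because the 3 genes were all highest in library 3. The promoters of CXCL1 and CXCL3 are 82.5% identical, those of CXCL2 and CXCL3 73.8% and those of CXCL1 and CXCL2 72.1% (identical positions per alignment column). Capitals mark GGAATTTCC, the core of a kappaB motif, which starts 77 or 78 bases before the start in each and occurs, on either strand, in 64 (0.419%) of the promoters searched.
CXCL1 (chr4:73869143-73869442, GRCh38.p14, plus strand): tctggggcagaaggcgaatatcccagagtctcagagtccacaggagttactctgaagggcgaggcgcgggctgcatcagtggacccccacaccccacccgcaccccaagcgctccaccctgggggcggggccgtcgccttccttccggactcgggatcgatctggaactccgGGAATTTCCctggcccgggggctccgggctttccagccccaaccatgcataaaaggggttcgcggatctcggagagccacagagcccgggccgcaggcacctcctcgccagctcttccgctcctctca
CXCL2 (chr4:74099146-74099445, GRCh38.p14, minus strand): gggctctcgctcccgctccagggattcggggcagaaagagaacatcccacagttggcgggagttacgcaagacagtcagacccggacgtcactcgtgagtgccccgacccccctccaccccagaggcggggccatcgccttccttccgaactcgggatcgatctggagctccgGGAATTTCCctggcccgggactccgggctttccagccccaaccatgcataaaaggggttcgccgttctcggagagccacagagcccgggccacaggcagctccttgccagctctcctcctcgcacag
CXCL3 (chr4:74038640-74038939, GRCh38.p14, minus strand): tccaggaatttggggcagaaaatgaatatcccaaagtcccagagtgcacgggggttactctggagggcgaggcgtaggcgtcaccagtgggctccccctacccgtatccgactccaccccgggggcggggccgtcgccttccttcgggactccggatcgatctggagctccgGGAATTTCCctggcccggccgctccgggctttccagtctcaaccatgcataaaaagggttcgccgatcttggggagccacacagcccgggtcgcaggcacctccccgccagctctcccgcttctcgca

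The same letters stand in the promoters of CXCL5, CXCL6 and CXCL8. CXCL8 was also highest in library 3 (740, 850 and 1033 CPM), but CXCL5 was highest in library 2 (39.5, 66.1 and 42.8 CPM), so the motif did not go with 1 order of libraries. Of the 64 genes that hold it, 50 were tested and 34 (68.0%) called, 16 of them highest in library 3 and 9 in each of the other libraries. The 16 include CXCL1, CXCL2 and CXCL3, whose values led to the search, and their relatives CXCL8 and CXCL10. This count is therefore not independent of those values. Over all genes 40.2% were called, and 1570 of the 6348 calls were highest in library 3.

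Also highest in library 3 were the urea transporter SLC14A1 (12.5, 16.1 and 51.0 CPM), ISM1 (11.1, 7.91 and 33.9 CPM), the surface glycoprotein CD24 (44.2, 45.5 and 131 CPM), the elastase inhibitor PI3 (6.43, 14.1 and 37.8 CPM) and SP140 (11.9, 9.93 and 23.3 CPM). CD44, often read together with CD24 in breast cancer cells, was highest in library 1. Lowest in library 3 were SERPINA1, the cystatin CST1 (100, 40.5 and 9.88 CPM), DMTN (21.5, 20.1 and 4.96 CPM) and the adhesion molecule L1CAM (67.0, 32.1 and 8.91 CPM). For CST1 and L1CAM library 2 lay between the others, and the 3 values were well separated.

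Stress response genes were mostly lowest in library 1. Of 25 tested genes of the integrated stress response and serine synthesis, 23 (92.0%) were called against 40.2% of all genes, and 16 of them were lowest in library 1, where 2063 of all 6348 calls were lowest, with the serine synthesis enzyme PHGDH at 5.56, 11.4 and 21.5 CPM and GDF15 lowest there as given above. The call count was 14 without library 1. The transporter SLC7A5 of the same list went the other way, with 817, 470 and 666 CPM. Of 11 mucin and secretory defence genes 10 (90.9%) were called and 9 spanned 2-fold (7.44% of all genes did both). Of these calls, 6 were lowest in library 1 and 4 in library 3, and 3 were highest in library 1. MUC5AC, a gel-forming mucin not usual in breast cells, stood at 857, 2207 and 1670 CPM and LCN2, lipocalin 2, at 523, 1025 and 1023 CPM, both lowest in library 1, whereas MUC1 was highest there (8.12, 1.62 and 0.336 CPM).

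Matrix and YAP target genes differed by member. Of 22 collagenases and matrix proteases, 19 (86.4%) were called against 40.2% of all genes, 7 of them highest in library 1 and 6 in each of the others. The collagenase MMP1 stood at 493, 531 and 811 CPM (edgeR adjusted p = 0.205). Among 17 YAP and TEAD targets, 11 (64.7%) were called, and THBS1, thrombospondin 1, had the widest range, with 2609 CPM in library 1 against 561 and 1002.

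The lineage genes described first also differed. Of 7 tested keratins, the hair-type KRT81 among them, all were called, against 40.2% of all genes. KRT81, KRT7 and KRT19 were lowest in library 1, and KRT8 and KRT18 were highest there. KRT18 and KRT19 had adjusted p-values of 8.02e-04 and 2.13e-08 (ranges 0.29 and 0.70 log2), CD44 of 1.00e-05 (0.42) and VIM of 0.0147 (0.16). Of 29 mesenchymal genes 22 (75.9%) were called; the calcium-binding S100A4 had the widest range, with 103, 35.1 and 18.9 CPM.

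Ribosomal protein genes were called at a share near that of all genes, with small ranges. Of 82 cytosolic ribosomal protein genes 34 (41.5%) were called, against 40.2% of all genes, none at 2-fold. Of these calls, 19 were highest in library 3 and 21 lowest in library 1, against 1570 and 2063 of the 6348 calls over all genes. Called or not, 51 of the 82 were highest in library 3. The list's median range was 0.16 log2, against 0.40 for all genes tested and 0.29 for genes with a mean of at least 10 CPM. Mitochondrial mRNAs spread more widely, with a median range of 0.66 log2, and 12 of 13 were highest in library 2. Their median deviations, each from the mean of the other 2 libraries, were -0.21, 0.47 and -0.30. Only 2 of the 13 (15.4%) were called, and these genes also varied more within shRNF20 (median range 0.33, against 0.16 for all genes). Single genes with small ranges were also found: EGFR (adjusted p = 0.517), FZD2 (0.984), FGFR1 (0.578) and RNF20 (0.992), by edgeR, had ranges of 0.08, 0.01, 0.05 and 0.03 on the log2 scale.

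**Figure D5:**
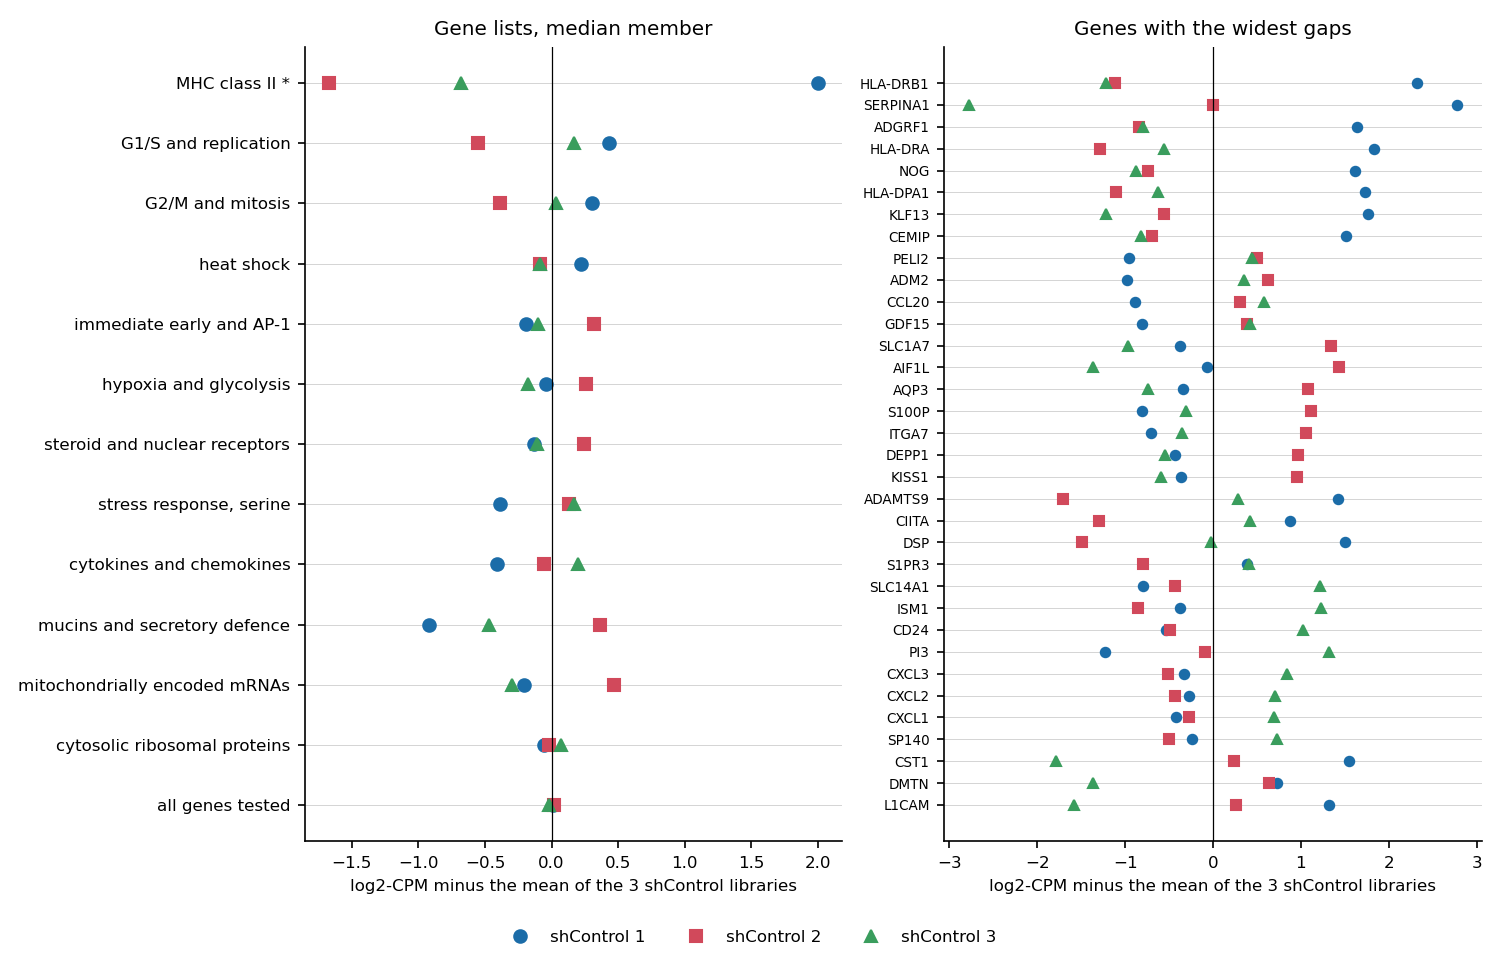
Deviation of each shControl library on the log2-CPM scale. Left, the median member of 13 groups of genes, as the library minus the mean of the other 2 shControl libraries. There, * marks the list put together after its values were seen. Right, 34 of the genes with the widest gaps, as the library minus the mean of the 3. The axis label holds for the right panel only. Library 1 is highest for MHC class II genes (2.0), library 2 is lowest for G1/S genes (-0.55), and all genes tested centre near 0.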

How the data were processed

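Counts per gene were deposited by the authors for each library as STAR gene-count tables; per the submitters' processing notes FastQC 0.12.1, STAR 2.7.11a and the hg38 build were used. For the annotation release, trimming and RNA selection, nothing is stated in these notes or labels. The unstranded count column was used, in which reads on several genes or places are left out; the summary lines that name no gene (20.9%, 22.7% and 21.1% of the shControl totals) were removed. CPM used gene counts, and TPM used GENCODE 29 merged exon lengths. The test among libraries was edgeR 4.0.16 (R 4.3.3; TMM, filterByExpr with a minimum count of 10, robust quasi-likelihood), with each shControl library as its own level and the 3 shRNF20 libraries giving the spread; DESeq2 1.42.0 was an alternative. Log2-CPM used a prior count of 2. The scripts were tested on simulated data. Genes were named by a rule: the 4 markers; the 15 highest by CPM and by TPM; of each list the 4 highest per length, up to 6 at 0 counts, lineage factors and receptors at 10 CPM or more, and the 2 of widest range; the 5 longest silent runs; and for each library the 8 highest and 4 lowest among genes at 10 CPM or more. Genes outside it that the text names were chosen after their values were seen. The members and lists were chosen with earlier results of these data known. Where nothing says replicates were separate cultures, the p-values speak for these libraries alone, and their spread may be technical. Intervals and floors cover counting error only. Some genes that the rule names are not reported here.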

Additional observations from a re-analysis of the deposited data

How the results depend on the processing

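No paired analysis was possible because each shControl library is its own level in the test, so a replicate number cannot be a block. DESeq2 called 3457 genes among the libraries (3455 shared with the edgeR calls), 2778 for library 1 against 2, 1464 for 1 against 3 and 1894 for 2 against 3; its cause was not tested. Requiring at least 2-fold left 1175, 717, 498 and 641. Leaving out 1 library gave 3241 (without shControl library 2) to 8121 (without shRNF20 library 3) genes among the libraries, 4046 to 6393 for library 1 against 2, 2070 to 4568 for 1 against 3 and 2681 to 5198 for 2 against 3; without a shControl library only 2 are compared. The 100 most abundant genes held 15% of the summed strand columns and 15.2% to 15.6% with a library left out. At least 2-fold left 4 G1/S, 0 G2/M, 14 cytokine, 3 stress response and 2 immediate early genes. Of 219 alternatives over 48 results, 197 kept their value within the set limit and 22 moved. The limit was 1.5-fold for counts, and 1 SD among the control libraries for shares and ranges. Of the results, 35 are log2-CPM ranges of genes picked for wide gaps, under another prior count or TMM scaling. These could hardly pass their limit (largest shift -0.31, SERPINA1 at a prior count of 8), and all 22 moves lay among the other results. The total therefore says little about robustness. For the genes at 0 counts, TMM scaling gives no separate value.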

Other observations

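MALAT1, a nuclear noncoding RNA that is abundant in most cells, was read at only 1.92, 1.42 and 0.841 CPM, while NEAT1, its neighbour and another nuclear noncoding RNA, was at 168, 133 and 117 CPM. MALAT1 and NEAT1 were chosen after their values were seen.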
